A study of Homo sapiens with 402 samples.

Results

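The 10 genes described here belong to epidermal growth factor receptor (EGFR) signalling and were measured in a chemical screen of MCF10A cells, a non-tumorigenic human breast epithelial line. They were the receptor EGFR, 4 of its ligands (AREG, EREG, HBEGF and TGFA), 3 phosphatases that act on the kinase ERK (DUSP4, DUSP5 and DUSP6) and 2 Sprouty inhibitors (SPRY2 and SPRY4). The genes were chosen by name, not by their values. They were 10 of 34721 symbols counted in the series, and all 10 were listed in all 402 libraries.

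EGFR is a receptor tyrosine kinase. Its ligands are made as membrane-anchored precursors and are released by cleavage, so that a cell can stimulate itself and its neighbours. The bound receptor activates RAS, RAF, MEK and ERK, and ERK in turn raises transcription of the dual-specificity phosphatases, which remove the activating phosphates from ERK, and of the Sprouty proteins, which restrain signalling from the receptor to RAS. Transcripts of these inhibitors are widely used as a readout of ERK output, and MCF10A cells are kept in medium with added EGF in most laboratories.

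In GRCh38 the receptor gene lies at chr7:55019021-55211628 (plus strand). Of the ligands, AREG lies at chr4:74445134-74455009 (plus), EREG at chr4:74365143-74388751 (plus), HBEGF at chr5:140332843-140346631 (minus) and TGFA at chr2:70447280-70554193 (minus). Of the phosphatases, DUSP4 lies on chromosome 8, DUSP5 at chr10:110497838-110511544 (plus) and DUSP6 at chr12:89347232-89353271 (minus). SPRY2 lies at chr13:80335976-80340951 (minus) and SPRY4 at chr5:142310427-142326455 (minus). All are protein-coding genes, and counts are per gene.

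The study exposed MCF10A cells for 48 h to 1 of 21 chemicals at 0.025, 0.25, 2.5 or 25 µM and sequenced RNA from each well with a plate-based, barcoded method. There were 333 dosed and 69 control libraries on 5 plates, with 4 libraries a dose, named biological replicates in the labels, all from cells of passage 105. MPB and PPB at 0.025 µM had 3 libraries each. The metals plate had 15 water controls beside mercury, lead, copper, cadmium and arsenic. The BPA plate had 15 DMSO controls for PPB, MPB, BPS, BPF and BPA. On the thiram plate, 15 DMSO controls served thiram, PCB187, PCB153, DCP_25 and DCB_14. The PFOA plate had 4 water controls for PFOA, and 12 DMSO controls for phenanthrene, PFOS, PFNA and PFDA. DDE stood on a plate of its own with 8 controls, whose labels give water while DDE is labelled DMSO. These 8 controls carry the barcode of the DDE plate but the plate name of the metals plate, so their place rests on the barcode alone, and every DDE fold change rests on them. Cadmium at 25 µM was analysed with 2 libraries, and 1 more with that label carried the barcode of the thiram plate and was set aside.

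Library totals ran from 1.43 M to 25.8 M reads, with a median of 12.6 M. The 2 cadmium libraries at 25 µM were the shallowest, with 1.43 M and 1.45 M. The 4 thiram libraries at 25 µM had 2.46 M to 6.29 M reads (median 5.51 M), against a median of 13.3 M over their plate. Depth differed between the controls with the first and with the last numbers, with medians of 20.9 M and 3.17 M on the metals plate and of 17.9 M and 3.18 M on the thiram plate. Results are therefore also given within the first set (dosed replicates 1 and 2 with the first controls) and the last set (dosed replicates 3 and 4 with the last controls). All 9 epithelial markers examined, keratins, CDH1, EPCAM and TP63 among them, were over 1 CPM (counts per M reads) in the controls of every plate, and no leukocyte or hormone receptor marker was. Listed on the DDE plate were 0 of 3 leukocyte, 1 of 2 hormone receptor, 2 of 4 fibroblast and 1 of 2 endothelial markers. The unlisted markers were not measured there. The other plates listed 3 of 4 fibroblast markers and all markers of the other types. Of 4 fibroblast markers 2 were over 1 CPM on every plate, with summed medians of 22 to 110 CPM, and of 2 endothelial markers 1 was on every plate but the PFOA plate, with summed medians of 0.978 to 4.85 CPM over the 5 plates. Their part in the results was not tested.

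In the controls, AREG was by far the most abundant of the 10 transcripts per length. Its mean level was 453 CPM per kb of exon over 4 control groups, 1 on each of 4 plates, with a range of 338 to 508. EGFR followed with 15.1 CPM per kb (14.1 to 17) and DUSP4 with 14.1 CPM per kb (13 to 15.3), and these ranges overlapped. SPRY2 and DUSP6 came next at 11.3 and 9.78 CPM per kb, also with overlapping ranges. DUSP5, SPRY4, TGFA and EREG lay at 6.63, 5.82, 5.06 and 3.93 CPM per kb, each overlapping its neighbour in this order. HBEGF was lowest, at 1.39 CPM per kb (1.19 to 1.59), below the range of every other gene. EGFR stood higher in CPM on the DDE plate, which was sequenced in another run, with 652 ± 122 CPM (SD, n = 8) against control means of 176 to 213 CPM on the 4 other plates. That plate listed 15081 symbols and the others 34718, so CPM there rest on a different set of genes. The summed epithelial markers were higher there too, with a median of 12687 CPM in controls against 3118 to 4131 CPM.

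**Figure D1:**
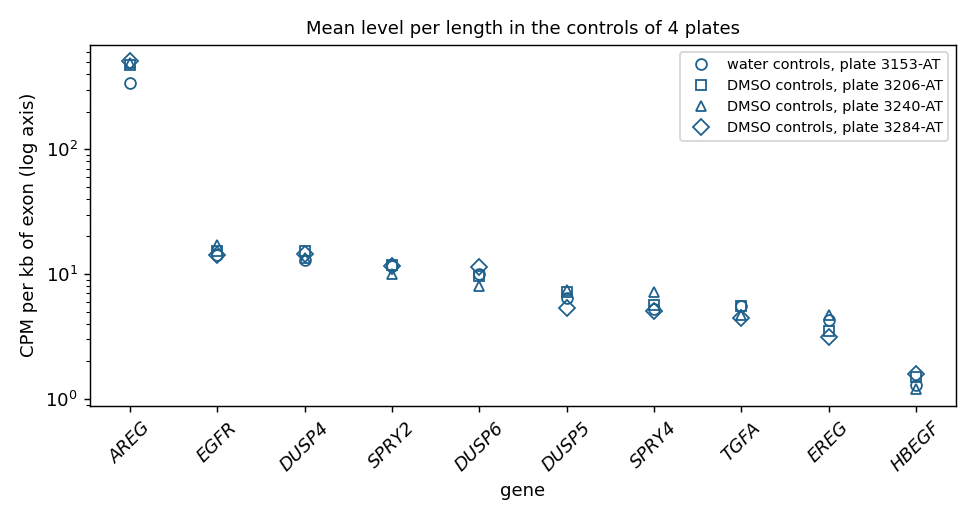
Mean control level of each gene per kb of exon (log axis), with 1 symbol for each of 4 plates. AREG lies at 338 to 508 CPM per kb and HBEGF at 1.19 to 1.59, and the other 8 genes lie between them.

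AREG (amphiregulin) and EREG (epiregulin) are neighbours on chromosome 4, with 56.4 kb between the end of EREG and the start of AREG, while HBEGF (heparin-binding EGF-like growth factor) lies on chromosome 5. The sequences upstream of these 3 ligand genes are shown because HBEGF was called in 5 chemicals at 25 µM, and AREG and EREG in 4 each but not always in the same direction. They are from RefSeq (GRCh38.p14), 5′ to 3′ on the strand of the gene, and end before the first annotated exon. AREG is at chr4:74444886-74445133 (plus strand), EREG at chr4:74364895-74365142 (plus strand) and HBEGF at chr5:140346632-140346853 (minus strand). Capitals mark matches to the searched motifs.
AREG: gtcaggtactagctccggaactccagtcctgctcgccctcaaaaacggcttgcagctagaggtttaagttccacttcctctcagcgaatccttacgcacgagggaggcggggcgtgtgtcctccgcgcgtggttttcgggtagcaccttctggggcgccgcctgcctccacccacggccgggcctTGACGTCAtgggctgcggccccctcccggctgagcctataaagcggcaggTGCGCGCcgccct
EREG: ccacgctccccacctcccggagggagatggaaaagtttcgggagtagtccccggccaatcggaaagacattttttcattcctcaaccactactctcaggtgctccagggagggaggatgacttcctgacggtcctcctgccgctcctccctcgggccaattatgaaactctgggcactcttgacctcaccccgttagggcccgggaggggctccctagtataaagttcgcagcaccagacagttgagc
HBEGF: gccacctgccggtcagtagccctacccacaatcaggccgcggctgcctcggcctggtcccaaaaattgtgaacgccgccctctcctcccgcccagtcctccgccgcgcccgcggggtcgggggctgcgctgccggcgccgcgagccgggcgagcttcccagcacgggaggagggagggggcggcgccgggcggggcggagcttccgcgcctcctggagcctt
The motifs, searched on both strands, were the cyclic AMP response element TGACGTCA, the AP-1 site TGANTCA, the ETS core CCGGAAG, the antioxidant response element core TGACNNNGC and the metal response element cores TGCACNC and TGCGCNC. In the 250 bases before the start, AREG had TGACGTCA beginning 65 bases and TGCGCNC beginning 15 bases upstream. EREG and HBEGF had no match in these windows. Matches were also found in 4 genes whose sequences are not shown. EGFR had TGANTCA beginning 232 and 136 bases upstream, TGFA TGCGCNC at 195, SPRY2 TGCGCNC at 130 and SPRY4 TGACNNNGC at 228. These lie in a single entry of each gene, and EGFR, TGFA and SPRY2 have further entries without a match. DUSP6 had no match. Over 35116 promoter windows of 250 bases, TGACGTCA was in 1.65%, TGANTCA in 6.57%, CCGGAAG in 8.52%, TGACNNNGC in 10.9%, TGCACNC in 9.87% and TGCGCNC in 16.8%. Entries were found for 8 of the 10 genes. A match describes letters only, and no binding was measured.

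Each dosed group was compared with the controls of its own plate in edgeR. The threshold for a call was 0.05 on the p adjusted by Benjamini and Hochberg's method over all genes. At 25 µM, 31 of the 210 pairs of gene and chemical were called, 21 higher and 10 lower, against 4.85% of all gene and chemical pairs. They came from 7 chemicals: arsenic with 8 genes, copper with 7, thiram with 6, lead with 4, cadmium with 3, DDE with 2 and MPB with 1. HBEGF was called in 5 chemicals and SPRY4 in 4, always higher. AREG and EREG were each called higher in 2 chemicals and lower in 2 others. In the other 14 chemicals none of the 140 pairs was called by edgeR or DESeq2, 18 had an unadjusted p under 0.05, and the log2 fold changes ran from -1.08 for HBEGF in PFOA to 0.83 for HBEGF in DCP_25.

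**Figure D2:**
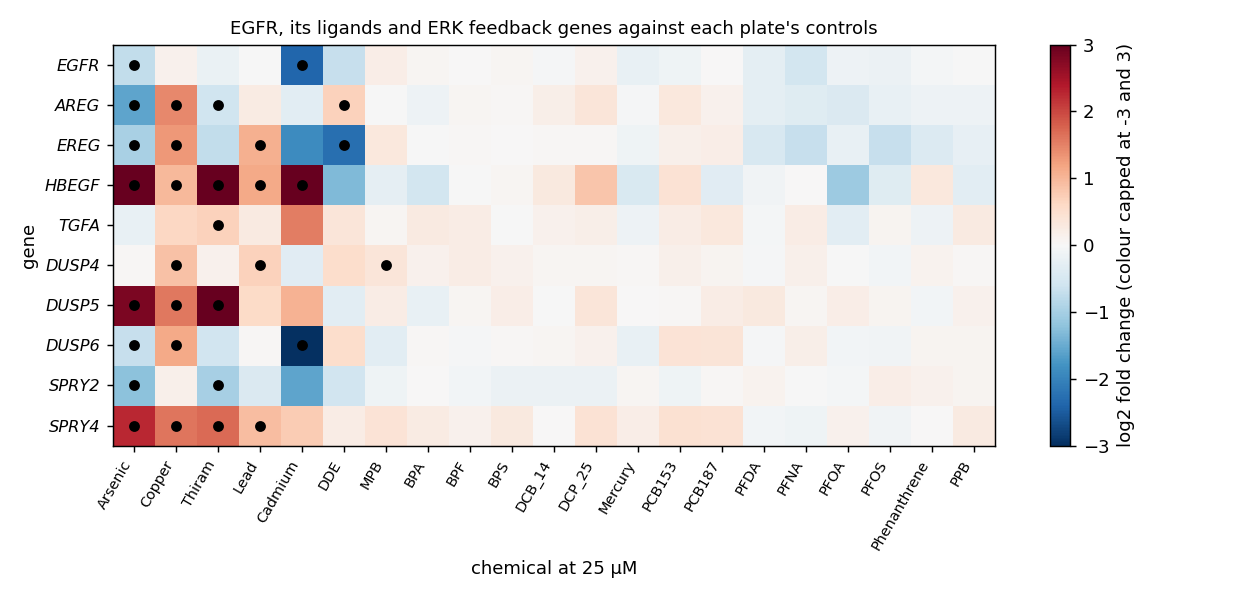
Log2 fold change of each gene (vertical) in each chemical at 25 µM (horizontal) against the controls of its plate, with the colour capped at -3 and 3 and a dot on each of the 31 called pairs. The dots lie in 7 chemicals, and copper and lead are the 2 with several calls and none lower.

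The receptor fell in 2 chemicals. EGFR was at 76, 103, 139 and 102 CPM in arsenic at 25 µM and between 142 and 211 CPM (median 175) in the 15 water controls. All 4 arsenic libraries lay below every control. The log2 fold change was -0.74 (SE 0.13, adjusted p = 8e-07). In bulk RNA, fewer cells with a transcript and less of it per cell cannot be told apart. In cadmium at 25 µM the 2 libraries had 32.6 and 35 CPM, the lowest level of EGFR in any group. The log2 fold change was -2.37 (SE 0.38, adjusted p = 8.35e-07), and it was -0.88 (SE 0.23) with the library set aside put back. In copper, lead and mercury, on the same plate, EGFR was not called, with log2 fold changes of 0.12, -0.003 and -0.22. The gene overlaps the antisense gene EGFR-AS1 over 186 exon bases, and reads of the pair cannot be told apart without strand.

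AREG moved in opposite directions in copper and arsenic. In copper at 25 µM its level was 1870, 2007, 1094 and 1163 CPM, against 340 to 732 CPM (median 580) in the water controls. Every copper library lay above every control, and the log2 fold change was 1.45 (SE 0.12, adjusted p = 2.3e-17), a 2.73-fold rise. In arsenic at 25 µM it was 183, 194, 209 and 171 CPM. All 4 lay below every control, and the log2 fold change was -1.57 (SE 0.15, adjusted p = 4.53e-16). The first 8 of these controls had more AREG than the last 7, with 580 to 732 CPM against 340 to 567, and the change was 1.56 and 1.38 for copper and -1.77 and -1.11 for arsenic within the first and last sets.

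At lower doses of arsenic AREG was above the controls of its plate. Those controls had the lowest AREG mean, 557 CPM, of the 5 control groups outside the DDE plate. The median of these 5 means was 806 CPM. The part of this low control level in the rises of arsenic and copper was not tested. At 0.025 µM arsenic the log2 fold change was 0.53 (SE 0.13, adjusted p = 0.365), not called. AREG was at 849, 836, 816 and 800 CPM at 0.25 µM arsenic, all above the highest control, with a log2 fold change of 0.56 (SE 0.13, adjusted p = 0.0456). This call was lost with any single replicate left out, with adjusted p from 0.117 to 0.238, and with the 2 groups fitted alone (adjusted p = 0.0508). At 2.5 µM arsenic the libraries had 877, 827, 549 and 1020 CPM, and 3 of the 4 lay above every control (log2 fold change 0.55, SE 0.13, adjusted p = 0.00565, and 0.43 with adjusted p = 0.201 without replicate 4, and adjusted p = 0.056 with the 2 groups alone). The fall was thus seen at the highest dose alone among the 4 doses.

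In thiram at 25 µM AREG differed between replicates, with 890, 682, 198 and 414 CPM against 702 to 917 CPM in the DMSO controls. Replicate 1 lay among the controls and the other 3 below them. The pooled log2 fold change was -0.60 (SE 0.19, adjusted p = 0.0101). It was -0.16 (adjusted p = 0.220) within the first set and -1.51 (adjusted p = 5.7e-13) within the last, and the call was lost without replicate 3 (adjusted p = 0.0541) or 4 (adjusted p = 0.0643). In DDE, AREG rose to 789, 672, 721 and 762 CPM at 25 µM, above the 341 to 559 CPM of its 8 controls, with a log2 fold change of 0.68 (SE 0.10, adjusted p = 0.00237, and 0.0544 without replicate 3). The same change, 0.68, was found at 2.5 µM DDE (adjusted p = 0.0024). That call was lost with these 2 groups fitted alone (adjusted p = 0.0924) and without replicate 2 (adjusted p = 0.0721) or 3 (adjusted p = 0.0694). At all 4 DDE doses the mean of AREG, 589 to 736 CPM, exceeded the control mean of 459 CPM. Across the 4 DDE doses alone, with no control in the contrast, none of the 10 genes had a trend. Nor did any of the 13921 genes tested on that plate. An offset of these controls was not tested.

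EREG, the neighbour of AREG, rose in copper and in lead. Its level was 85.2, 70.5, 32 and 52.4 CPM in copper at 25 µM, and 68.5, 62.6, 36.2 and 37.6 CPM in lead, against 15.1 to 34.8 CPM (median 25) in the water controls. All lead libraries and 3 of 4 copper libraries exceeded every control. The log2 fold changes were 1.29 (SE 0.18, adjusted p = 9.39e-08) for copper and 1.06 (SE 0.19, adjusted p = 4.25e-05) for lead. Within the last set neither was called (0.91, adjusted p = 0.0606 for copper and 0.73, adjusted p = 0.144 for lead). In arsenic EREG fell, with 15.4, 15.3, 5.98 and 13.1 CPM and a log2 fold change of -0.97 (SE 0.26, adjusted p = 0.00154). In DDE it was 67.9, 25.5, 24.9 and 27.2 CPM, but the 8 controls of that plate spread from 52.2 to 485 CPM. The log2 fold change of -2.26 (SE 0.62, adjusted p = 0.0346) was no longer called without replicate 2 (adjusted p = 0.146) or 3 (adjusted p = 0.171). The mean of EREG was also below the control mean at the lower DDE doses, without a call. At every dose the highest DDE library lay inside the control range. It had 67.9 CPM at 25 µM, 139 CPM at 2.5 µM, 71 CPM at 0.25 µM and 182 CPM at 0.025 µM. At the lower doses the log2 fold changes were -1.23 at 0.025 µM, -2.15 at 0.25 µM and -1.65 at 2.5 µM. The highest of those controls were the 2 with the first and last numbers, 284 and 485 CPM, and these also stood apart in HBEGF (59.8 and 104 CPM against 14.1 to 29.6) and DUSP6 (9.49 and 0.296 CPM against 33.6 to 50.8). Without these 2 controls EREG was not called at 25 µM DDE (log2 fold change -1.60, SE 0.53, adjusted p = 0.0931), while AREG was (0.62, SE 0.09, adjusted p = 0.000843).

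HBEGF had the largest rises. From 0 to 5.83 CPM (median 4.62) in the water controls it reached 104, 121, 81.7 and 78.3 CPM in arsenic at 25 µM, a 21.6-fold rise (log2 fold change 4.43, SE 0.23, adjusted p = 2.61e-32). In thiram it reached 86.1, 102, 222 and 167 CPM against 0 to 20.8 CPM (median 3.22) in the DMSO controls, a 37.7-fold rise (5.24 on the log2 scale, SE 0.27, adjusted p = 8.6e-35). No dosed library of either chemical overlapped the controls, and the changes within the first and last sets were 4.59 and 4.93 for arsenic and 4.80 and 5.09 for thiram. In cadmium the 2 libraries had 18.8 and 81.2 CPM (log2 fold change 3.45, SE 0.80, adjusted p = 0.000966), and the call was lost without replicate 2 (adjusted p = 0.865). Copper and lead gave small rises from the same low base, to 6.43 to 9.97 CPM and 6.38 to 15.3 CPM. On the log2 scale these were 0.98 (SE 0.31, adjusted p = 0.0468) and 1.14 (SE 0.31, adjusted p = 0.0142). The copper call was lost without replicate 1 (adjusted p = 0.149) or 2 (adjusted p = 0.159) and within the last set (adjusted p = 0.279), and the lead call without replicate 2 (adjusted p = 0.0641) or 4 (adjusted p = 0.0886). From 0.025 to 25 µM the means were 6.56, 6.70, 8.76 and 8.71 CPM in copper and 5.12, 7.32, 11.7 and 10.1 CPM in lead. The water controls had a mean of 3.89 CPM, with 4.74 CPM in the first and 2.92 CPM in the last. The part of these controls in the copper and lead rises was not tested.

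TGFA (transforming growth factor alpha) was called in thiram alone. Its level was 34.4, 39.4, 29.9 and 41 CPM there and 12.5 to 33.2 CPM in the DMSO controls, with 3 of 4 libraries above every control. The log2 fold change was 0.70 (SE 0.23, adjusted p = 0.0132), and it was not called within the first set (0.75, adjusted p = 0.0547), within the last (0.49, adjusted p = 0.531) or without replicate 2 (adjusted p = 0.0989). In cadmium the 2 libraries had 76.6 and 74.2 CPM, the highest group mean of TGFA, and this was not called (log2 fold change 1.53, SE 0.57, adjusted p = 0.0722). TGFA in copper had a log2 fold change of 0.61 (SE 0.21, adjusted p = 0.0705).

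**Figure D3:**
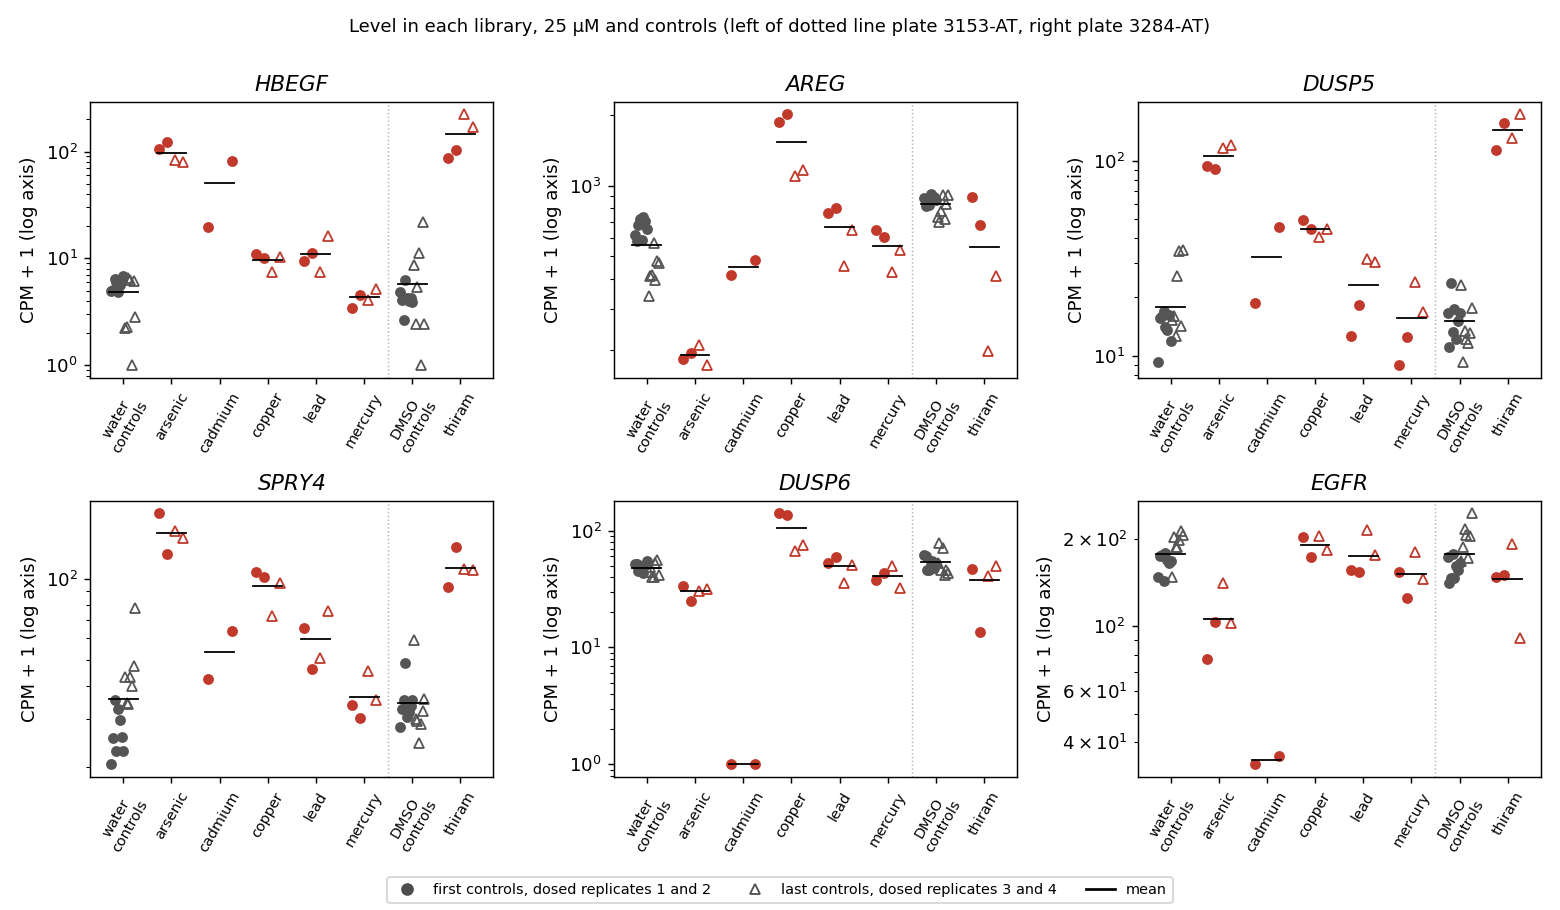
Level of 6 genes in each library, as CPM + 1 on a log axis, for the controls and the 25 µM libraries of the metals plate and for thiram and its controls. HBEGF is above every control in all 8 arsenic and thiram libraries, while AREG is above them in copper and below them in arsenic.

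The 3 phosphatases did not share a pattern. DUSP5, a nuclear phosphatase specific for ERK, rose in arsenic to 93.3, 90, 115 and 119 CPM and in copper to 48.7, 43.7, 39.4 and 43.4 CPM, against 8.36 to 33.9 CPM (median 14.7) in the water controls. In thiram it rose to 112, 155, 129 and 171 CPM against 8.27 to 22.6 CPM in the DMSO controls. None of these 12 libraries overlapped its controls. The log2 fold changes were 2.83 (SE 0.23, adjusted p = 7.85e-20) in arsenic, 1.58 (SE 0.24, adjusted p = 6.39e-07) in copper and 3.28 (SE 0.21, adjusted p = 1.02e-26) in thiram.

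DUSP6, the cytoplasmic ERK phosphatase, rose in copper and fell in arsenic and cadmium. It was at 139, 135, 65.6 and 74.6 CPM in copper, at 32.8, 23.9, 29.4 and 30.6 CPM in arsenic, and at 39.1 to 54.6 CPM in the water controls. Copper libraries lay above and arsenic libraries below every control. The log2 fold change was 1.14 (SE 0.13, adjusted p = 1.8e-11) in copper and -0.69 (SE 0.16, adjusted p = 0.000228) in arsenic. Within the first and last sets it was 1.52 and 0.63 (adjusted p = 0.0427) in copper, and the arsenic value within the last set was -0.49 (adjusted p = 0.0789). In cadmium DUSP6 had no read in either library. With 3 reads over the group as the floor, 1.99 CPM, its level was at least 23.5-fold lower than the control mean of 46.6 ± 5.23 CPM (SD, n = 15). The adjusted p was 0.000118, and with the library set aside put back the log2 fold change was -3.26 (SE 0.57). An antisense gene, AC024909.2, shares 1875 exon bases with DUSP6, so these reads may include it.

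DUSP4, which acts on ERK in the nucleus, rose in copper (174, 163, 171 and 177 CPM) and in lead (124, 144, 163 and 173 CPM), against 72.7 to 131 CPM in the water controls. The copper libraries and 3 of the 4 lead libraries exceeded every control. This gave log2 fold changes of 0.89 (SE 0.14, adjusted p = 1.53e-06) and 0.70 (SE 0.14, adjusted p = 0.000418). MPB gave a smaller change in DUSP4, with 149, 134, 131 and 156 CPM against 90.7 to 141 CPM in the DMSO controls (log2 fold change 0.37, SE 0.10, adjusted p = 0.0317). It was the 1 member called in MPB, where 1.38% of all genes were called and 0.43% called higher, and was lost within the last set (adjusted p = 0.629) and without replicate 1 (adjusted p = 0.308) or 4 (adjusted p = 0.203). In arsenic, where 8 members were called, DUSP4 had a log2 fold change of 0.04 (SE 0.15, adjusted p = 0.870).

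The Sprouty genes moved apart in arsenic and thiram. SPRY4 rose to 174, 123, 150 and 140 CPM in arsenic and to 91.8, 130, 107 and 107 CPM in thiram, against 19.4 to 76.6 CPM in the water controls and 23.4 to 58.3 CPM in the DMSO controls. SPRY2 went the other way in the same libraries, with 16.9, 15.8, 9.63 and 17.1 CPM in arsenic and 10.9, 19.7, 16.3 and 31.5 CPM in thiram, against 19.2 to 50.9 and 18.2 to 55.6 CPM in the same controls. All 8 libraries were above the controls in SPRY4, and in SPRY2 the arsenic libraries were below them and the thiram libraries overlapped them. For SPRY4 the log2 fold changes were 2.26 (SE 0.17, adjusted p = 1.49e-21) and 1.70 (SE 0.22, adjusted p = 5.54e-10). For SPRY2 they were -1.23 (SE 0.17, adjusted p = 7.87e-10) and -1.004 (SE 0.24, adjusted p = 0.000478), the latter -0.75 (adjusted p = 0.235) within the last set.

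Copper and lead raised SPRY4 without a call in SPRY2. SPRY4 was at 105, 100, 71.8 and 95.4 CPM in copper, 3 of 4 above every control, and at 64.6, 45.1, 49.9 and 74.7 CPM in lead, within the control range. The log2 fold changes were 1.60 (SE 0.17, adjusted p = 3.24e-12) and 0.93 (SE 0.18, adjusted p = 0.000217). The last controls of this plate had more SPRY4 than the first, with 33.1 to 76.6 CPM against 19.4 to 34.5. Within the first and last sets the change was 1.97 and 0.97 for copper and 1.07 and 0.52 (adjusted p = 0.133) for lead.

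By chemical, the calls at 25 µM read as follows against the share of all genes called. In arsenic 8 members were called, 3 higher and 5 lower, where 41.4% of all genes were called, and in thiram 6, 4 higher and 2 lower, where 25.9% were. In cadmium 3 were called, 1 higher and 2 lower, against 11%, and in DDE 2, 1 higher and 1 lower, against 7.77%. In copper 7 members were called, all higher, where 5.09% of genes were called and 2.88% were called higher. In lead 4 were called, all higher, against 3.85% called and 2.15% called higher. The median log2 fold change of the 10 genes was 1.06 in copper and 0.42 in lead, with medians over all genes of -0.01 and -0.02. In arsenic and thiram it was -0.45 and -0.04, with medians over all genes of 0.001 and -0.11. In cadmium the median of the 10 was -0.33, but the median over all genes was -1.42, in libraries of 1.43 M and 1.45 M reads. Another scaling, RLE, moved the median over all genes by 0.14 in arsenic and 0.17 in cadmium, and under it the 31 called pairs kept their direction. At 0.025 µM no member was called in any of these metals. There the median of the 10 was 0.33 in mercury, 0.25 in copper, 0.21 in lead, 0.21 in arsenic and 0.11 in cadmium. The medians over all genes were -0.05 to 0. The part of the water controls in these medians was not tested.

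Direct contrasts between metals at 25 µM were run on the same plate, and those with copper were chosen after the values had been seen. All 10 genes differed between arsenic and copper, 3 higher and 7 lower in arsenic, where 32.5% of all genes were called. HBEGF was higher in arsenic by 3.45 (SE 0.29, adjusted p = 2.29e-18) and AREG lower, with a log2 difference of -3.02 (SE 0.18, adjusted p = 2.71e-27). TGFA was the weakest, with -0.83 (SE 0.29, adjusted p = 0.0183), and it was not called with RLE scaling (adjusted p = 0.0615), DESeq2 (adjusted p = 0.0598) or without replicate 2 or 4. SPRY4, higher in arsenic by 0.66 (SE 0.21, adjusted p = 0.00963), was not called without replicate 3 (adjusted p = 0.0938).

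Copper differed from lead in 2 of the 10 genes, both higher in copper, where 0.827% of all genes were called and 0.44% called higher. These were AREG (log2 difference 1.20, SE 0.16, adjusted p = 1.77e-07) and DUSP6 (1.11, SE 0.16, adjusted p = 2.12e-06). With the replicate number as a block over all dosed libraries of the plate, 5 were called and 2.63% of all genes. DUSP5 (1.09, adjusted p = 1.33e-06), SPRY2 (0.59, adjusted p = 0.00789) and SPRY4 (0.71, adjusted p = 8.07e-05) then joined AREG and DUSP6. Same-numbered libraries were compared between doses of a chemical only. Whether copper and lead libraries of the same number pair was not tested. For EREG, HBEGF and DUSP4, called higher against controls in both metals, the difference between the metals was not called, with 95% intervals of -0.21 to 0.67, -0.83 to 0.52 and -0.16 to 0.53.

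Arsenic differed from cadmium in 4 genes, where 8.56% of all genes were called. AREG was lower in arsenic (-1.25, SE 0.25, adjusted p = 0.000115), and EGFR (1.63, SE 0.42, adjusted p = 0.00432), SPRY4 (1.51, SE 0.50, adjusted p = 0.0394) and DUSP6 (adjusted p = 0.00429, with no read in cadmium) were higher. Without replicate 1 or without replicate 2 of the dosed groups, which leaves a single cadmium library assumed to vary like the other groups, 1 gene was called. With the library set aside put back, the EGFR difference was 0.14 (adjusted p = 0.893).

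The dose series placed most calls at the top dose. Copper had nearly as many at 2.5 µM (6) as at 25 µM (7), and PCB153 had its 3 calls at 0.25 µM alone. At 2.5 µM, 10 pairs were called, all higher, against 0.412% of all gene and chemical pairs called and 0.188% called higher. Copper had 6 of them, where 3% of genes were called and 1.41% called higher: AREG, EREG, DUSP4, DUSP5, DUSP6 and SPRY4. Lead had EREG and HBEGF (0.613% of genes called, 0.387% higher), both lost without replicate 2 (adjusted p = 0.0967 and 0.0968) and EREG without replicate 4 (adjusted p = 0.0568), arsenic had AREG (1.96%, 0.906% higher) and DDE had AREG (0.496%, 0.23% higher). At 0.25 µM, 6 pairs were called, all higher, against 0.0748% of all pairs called and 0.0552% called higher. They were AREG in copper (0.156% of genes called, 0.0494% higher), AREG in arsenic (0.07%, 0.0206% higher), EREG in lead (0.123%, 0.0947% higher, lost within the first set, with adjusted p = 0.161, and without replicate 2, 3 or 4, with adjusted p from 0.139 to 0.259) and AREG, DUSP5 and DUSP6 in PCB153 (0.333%, 0.314% higher). At 0.025 µM edgeR called none of 210 pairs, 29 had an unadjusted p under 0.05, DESeq2 called 2, and 0.0104% of all pairs were called.

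In group log2 fold change, AREG rose with copper from 0.25 to 25 µM. Its libraries had 1091, 998, 861 and 890 CPM at 0.25 µM and 1390, 1294, 1095 and 1311 CPM at 2.5 µM, all above the highest control of 732 CPM. In log2 fold change this was 0.77 (SE 0.12, adjusted p = 0.000112) and 1.18 (SE 0.12, adjusted p = 7.05e-12), before the 1.45 at 25 µM. From 2.5 to 25 µM the AREG level rose further in the dosed replicates of the first set but not in those of the last set. DUSP6 followed at 2.5 µM with 99.5, 95, 82.8 and 71.2 CPM, all above the highest control of 54.6 CPM (log2 fold change 0.89, SE 0.13, adjusted p = 5.31e-07). EREG (0.96, SE 0.19), SPRY4 (0.93, SE 0.18), DUSP4 (0.66, SE 0.14) and DUSP5 (0.999, SE 0.25) rose in the same libraries. Within the last set SPRY4 was not called (0.53, adjusted p = 0.159). The DUSP5 value was not called within the first set (0.55, adjusted p = 0.0592), by DESeq2 (adjusted p = 0.165) or without replicate 3 (adjusted p = 0.251).

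**Figure D4:**
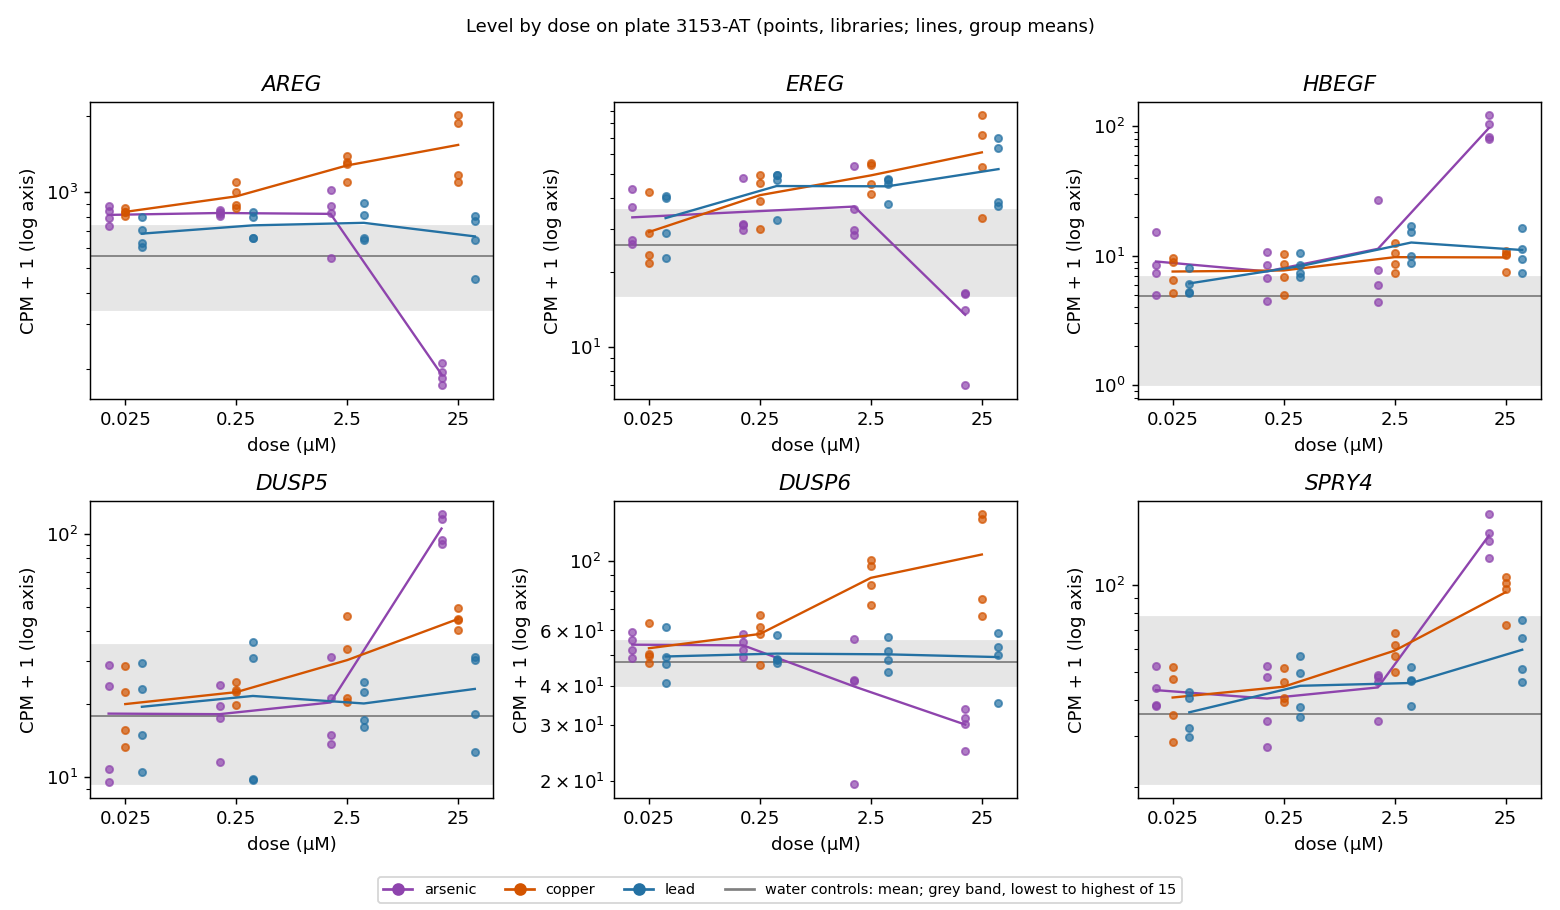
Level of 6 genes at each dose of arsenic, copper and lead, as CPM + 1 on a log axis, with a point for each library, a line through the group means and a grey band from the lowest to the highest of 15 water controls. AREG in copper climbs from 861 to 1091 CPM at 0.25 µM to 1094 to 2007 CPM at 25 µM, while in arsenic it drops to 171 to 209 CPM at 25 µM alone.

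Across the 4 doses alone, with no control in the contrast, a trend was called for 22 of 210 pairs, against 3.12% of all gene and chemical pairs. In copper 5 genes had a rising trend, where 1.71% of genes had a trend and 1.04% a rising one: AREG (0.30 log2 units a dose step, SE 0.05, adjusted p = 2.09e-05), DUSP6 (0.36, SE 0.05), SPRY4 (0.41, SE 0.07), EREG (0.36, SE 0.07) and DUSP5 (0.40, SE 0.09). EREG and DUSP5 were not called without replicate 1 (adjusted p = 0.153 and 0.0589) or replicate 2 (adjusted p = 0.0935 and 0.0846). In arsenic the 8 genes called at 25 µM had a trend (29.7% of genes), in thiram 5 genes, HBEGF, DUSP5 and SPRY4 rising and AREG and SPRY2 falling (18.5%), and in cadmium 4, HBEGF rising and EGFR, DUSP6 and SPRY2 falling (8.96%). The HBEGF trend in cadmium was lost without replicate 2 (adjusted p = 1), the SPRY2 trend in cadmium without replicate 1 (adjusted p = 0.716) or 2 (adjusted p = 0.174), with RLE scaling (adjusted p = 0.057) and with a term for the sets (adjusted p = 0.104). In thiram the AREG trend was lost without replicate 4 (adjusted p = 0.0741) and the SPRY2 trend without replicate 1 (adjusted p = 0.167) or 3 (adjusted p = 0.0884). Lead had no trend called (0.868% of genes). With the replicate number as a block, which paired the doses of copper, lead and mercury, copper had 7 rising trends, where 4.97% of genes had a trend, with DUSP4 (0.20 a step, adjusted p = 8.08e-07) and TGFA (0.21, adjusted p = 0.00449) added. In lead, 4 genes then had a rising trend, where 3.55% of genes had a trend: DUSP4 (0.15 a step, adjusted p = 0.00187), EREG (0.21, adjusted p = 0.0151), HBEGF (0.34, adjusted p = 0.0314) and SPRY4 (0.22, adjusted p = 0.000602). Under the same block mercury, with none otherwise (0.0494% of genes), had a falling trend in DUSP6 (-0.21, adjusted p = 0.011), where 0.275% of genes had a trend.

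The 3 calls of PCB153 at 0.25 µM came from a single library. Replicate 3 had 3430 CPM of AREG, while the other 3 had 786, 697 and 1030 CPM and the DMSO controls 702 to 917 CPM. In that library DUSP5 was at 81.4, DUSP6 at 187, EREG at 78.1 and SPRY4 at 142 CPM, each above every control of the plate, whose highest values were 22.6, 76.5, 27.3 and 58.3 CPM. DUSP4 (175 CPM) and TGFA (50.6 CPM) also exceeded every control there. HBEGF, at 13.7 CPM, lay inside the control range of 0 to 20.8 CPM, and SPRY2, at 30.6 CPM, inside 18.2 to 55.6 CPM. The log2 fold changes of 0.82 for AREG (adjusted p = 0.0011), 1.16 for DUSP5 (adjusted p = 0.00155) and 0.80 for DUSP6 (adjusted p = 0.00277) became -0.00152, 0.14 and 0.18 without replicate 3, and none of them was then called.

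**Figure D5:**
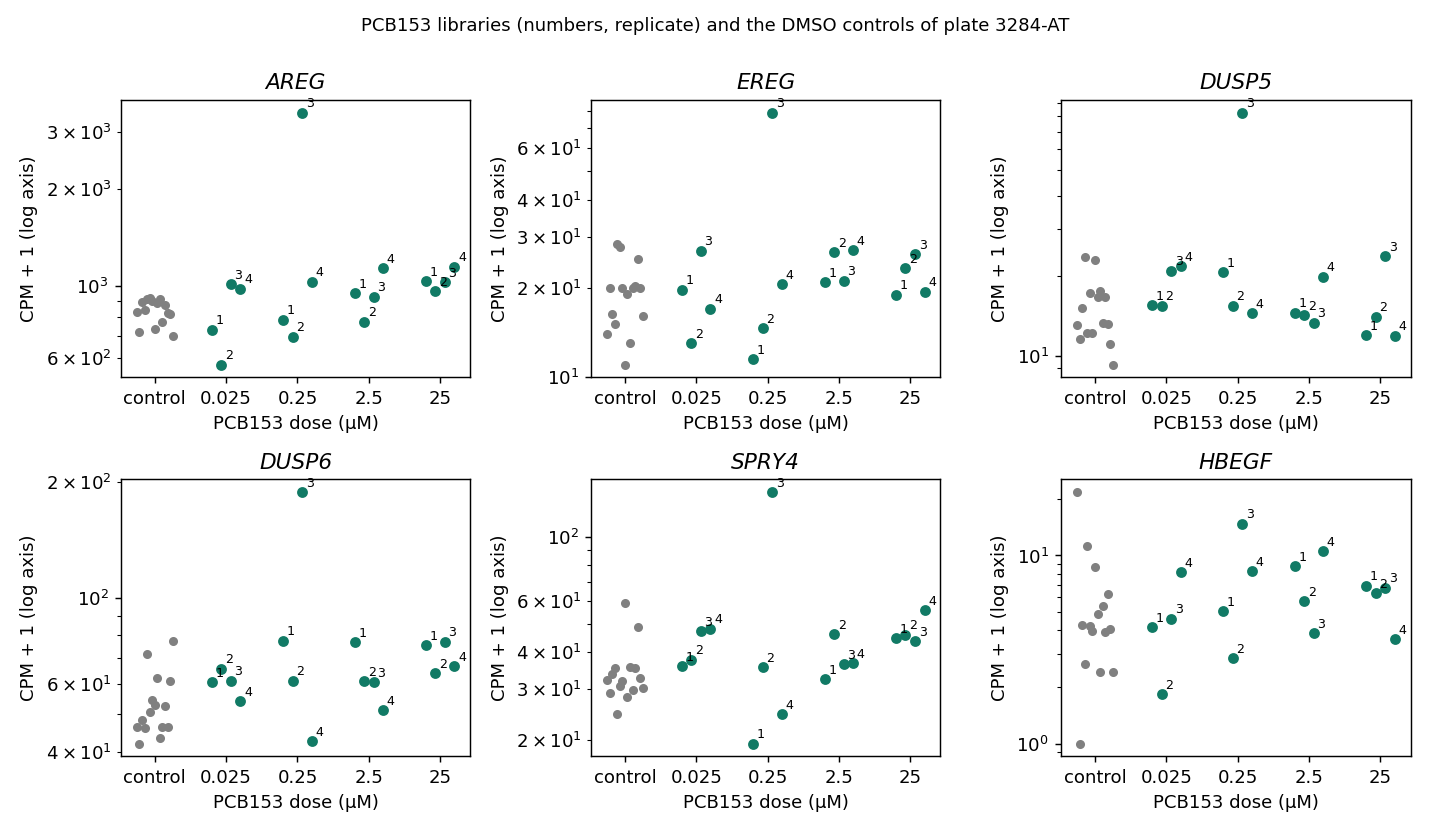
Level of 6 genes in the PCB153 libraries at each dose, numbered by replicate, and in the 15 DMSO controls of the plate, as CPM + 1 on a log axis. Replicate 3 at 0.25 µM stands alone above all other libraries for AREG (3430 CPM), EREG, DUSP5, DUSP6 and SPRY4.

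Controls alone gave some calls. Between the first and last controls, 3 members differed on the metals plate (20.3% of genes), 3 on the BPA plate (6.07%), 1 on the PFOA plate (0.546%) and 1 on the thiram plate (6.38%). AREG was higher in the first controls on the metals plate (0.58, SE 0.07) and the PFOA plate (0.54, SE 0.08). EGFR was lower in them on the metals plate (-0.22, SE 0.08), the BPA plate (-0.24, SE 0.07) and the thiram plate (-0.36, SE 0.08). Between water and DMSO controls of the PFOA plate, DUSP4 was higher in water, at 130 ± 7.59 CPM (SD, n = 4) against 98.3 ± 7.56 CPM (SD, n = 12). It was the 1 member called, with a log2 difference of 0.40 (SE 0.09, adjusted p = 0.00213), where 4.08% of genes were called and 2.13% called higher. The part of position on the plate in the results above was not tested beyond the values given within each set.

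Other genes of the pathway were counted in 7 lists of 55 genes. In copper at 25 µM 9 of the 55 were called, all higher, against 5.09% of all genes, and the list median was 0.18. Of 10 genes of ERK output 5 rose, with EGR1, an immediate early transcription factor, at 135 ± 27.9 CPM (SD, n = 4) against 39.1 ± 8.19 CPM (SD, n = 15), a log2 fold change of 1.75 (SE 0.14, adjusted p = 2.3e-17). EPGN (epigen), a further EGFR ligand, rose by 1.80 on the log2 scale (SE 0.17, adjusted p = 4.96e-15), and MAP2K1, which encodes the ERK kinase MEK1, by 0.52 (SE 0.09, adjusted p = 2.47e-05). In lead 7 of 55 were called, 5 higher and 2 lower, against 3.85% of all genes, with 5 of 10 ERK output genes, 4 higher and FOS lower. FOS had a log2 fold change of -1.33 (SE 0.41, adjusted p = 0.0469). Its lead libraries, at 9.51 to 26 CPM, lay inside the control range of 6.87 to 65.6 CPM. EPGN rose there by 0.87 (SE 0.18, adjusted p = 0.00042), and ERRFI1, an inhibitor of EGFR, fell (log2 fold change -1.34, SE 0.28, adjusted p = 0.000646).

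In arsenic 34 of the 55 were called, 27 higher and 7 lower, against 41.4% of all genes. Among them EPGN rose by 1.40 (SE 0.17, adjusted p = 4.16e-11) while AREG and EREG fell, and EGR1 rose by 4.44 (SE 0.13, adjusted p = 1.33e-49). Of 10 ERK output genes 5 were called higher and ETV4 lower (-0.38, SE 0.15, adjusted p = 0.0316). Of 13 RAS-ERK core genes 6 were called higher and HRAS lower (-1.24, SE 0.12, adjusted p = 4.31e-15). DUSP2, another nuclear phosphatase, rose by 2.53 (SE 0.24), and DUSP7, an ERK phosphatase of the cytoplasm like DUSP6, had a log2 fold change of -2.06 (SE 0.21, adjusted p = 2.75e-14). RHBDF1 and RHBDF2, which help the ligand-cleaving protease ADAM17 mature, went opposite ways (1.48, SE 0.21, and -1.47, SE 0.26). In thiram 32 of 54 were called, 24 higher and 8 lower, against 25.9%. FOS rose by 4.44 (SE 0.19, adjusted p = 1.16e-40) and DUSP2 by 4.59 (SE 0.22, adjusted p = 3.57e-37), and ADAM10, a protease that cleaves EGFR ligands, had -0.86 (SE 0.18, adjusted p = 3.93e-05). Of 10 ERK output genes 7 were called higher and ETV4 lower (-0.67, SE 0.18, adjusted p = 0.00157). Of 8 other ERK feedback genes 3 were called higher and DUSP1 lower (-0.70, SE 0.14, adjusted p = 4.23e-05). In cadmium 9 of 55 were called, 5 higher and 4 lower, against 11%, with DUSP2 at 5.63 (SE 0.37, adjusted p = 5.76e-24), EGR1 at 5.80 (SE 0.17, adjusted p = 3.36e-50) and DUSP7 at -2.60 (SE 0.86, adjusted p = 0.0326). JNK and p38 phosphatases were 3 of 3 higher in arsenic and in thiram, with DUSP10 at 1.69 (SE 0.27) and 2.90 (SE 0.30). In DDE 10 of 52 were called, 1 higher and 9 lower, against 7.77% of all genes, and 2 of the 3 JNK and p38 phosphatases were among the lower ones. In MPB 3 of 54 were called, against 1.38% of all genes, and all 3 were higher and stood in the ERK output list.

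Likeness was described by Pearson's r of group means, centred on each plate, over 90 groups that share plates and controls, with 6968 candidate genes. The closest gene to DUSP6 was ELK3 (r = 0.94, and 0.73 over the 87 groups without arsenic, cadmium and thiram at 25 µM), to HBEGF PMAIP1 (0.90 and 0.60), to EGFR TFAP2A (0.90 and 0.72), and to AREG SLC20A1 (0.82 and 0.62). For EREG it was S1PR3 (0.83 and 0.66), for TGFA ODC1 (0.67 and 0.46), for DUSP4 THBD (0.71 and 0.74), for DUSP5 PALLD (0.87 and 0.49), for SPRY2 POGLUT1 (0.86 and 0.56) and for SPRY4 PDLIM7 (0.84 and 0.73). Among the 10 genes themselves, HBEGF and DUSP5 had r = 0.77, which was 0.21 without those 3 groups, and DUSP4 and SPRY4 had 0.28, which was 0.65 without them. AREG and HBEGF went from -0.51 to 0.24.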

How the data were processed

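RNA of MCF10A cells was measured in 402 libraries. The deposited files hold raw read counts per gene symbol, made by the authors with STAR and featureCounts on GRCh38, with FastQC and MultiQC for quality, per the submitters' processing notes. For annotation, strand setting and tool versions: not given in the sources used here. Reads carry no molecular identifiers as used here, so floors cover counting error only.

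From these counts, edgeR 4.0.16 (R 4.3.3) was fitted per plate with all groups together: TMM scaling, a filter by group (minimum count 10, minimum total 15), quasi-likelihood tests and Benjamini-Hochberg adjustment over all genes, called under 0.05. Levels are CPM on the TMM scale. The trend used the 4 doses without controls, per 10-fold step. The library of cadmium at 25 µM with the barcode of another plate was set aside. The series text names 408 samples, and 402 were analysed. The biological replicates are those the labels name. No label gives separate passages, so p-values measure the spread between these wells.

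Alternatives were RLE scaling, no filter, DESeq2 1.42.0, a term for the first and last set, each set alone, the 2 groups alone, each replicate left out, the library set aside put back, the replicate number as a block and, chosen after seeing the data, DDE without the 2 controls that stood apart. Same-numbered libraries deviated together at every pair of doses (correlation over 0.1, genes with mean log2 CPM of at least 4) in copper (lowest 0.185), lead (0.402), mercury (0.355) and PFOA (0.258), and not in the other 17 chemicals. On simulated counts for arsenic at 25 µM, 57 of 83 genes changed 2-fold and with mean log2 CPM of at least 2 were recovered, and 63 of 81 for MPB. Of the calls, 4.26% for arsenic and 5.98% for MPB were false at that level, and 10.9% and 27% over all genes. Each simulation changed 100 genes 2-fold and 100 genes by less. In the real arsenic data 41.4% of all genes were called, and these rates were not tested with so many genes changed. The contrasts of copper with lead and arsenic were chosen after seeing the data, and the members and all lists with earlier results of these data known. All 10 members are named throughout. For chemicals with 3 or more members called, pathway genes were named from the highest and lowest log2 fold change of each list among called genes with mean log2 CPM of at least 2. Likeness used genes with mean log2 CPM of at least 4 on every plate. Gene positions and exon lengths are from GENCODE (GRCh38), promoters from RefSeq.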

Additional observations from a re-analysis of the deposited data

Results flagged for a closer look

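In 46 groups tested for a library far from the others, 4 had such a library, and chance alone picks out about 1 in 20 groups. The groups held 4 libraries, or 8 for the controls of the DDE plate. EREG in DDE at 25 µM had 67.9 CPM in replicate 1, while the other 3 libraries had 24.9 to 27.2 CPM. EREG in lead at 0.25 µM had 31.7 CPM in replicate 1, below the 46.3 to 48.3 CPM of the others. In PCB153 at 0.25 µM, replicate 3 had 3430 CPM of AREG against 697 to 1030 CPM in the others, and 81.4 CPM of DUSP5 against 13.5 to 19.7 CPM. These last 2 values come from the same library.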

How the results depend on the processing

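Of 94 single results, 58 kept their direction and stayed past the threshold under every alternative run, among them 18 of the 31 calls at 25 µM. The result that reversed was AREG in PCB153 at 0.25 µM, with a log2 fold change of -0.22 within the first set and from -0.00152 (without replicate 3) to 1.05 over the replicates left out. Without the low-count filter, 17 pairs were called at 2.5 µM, 13 at 0.25 µM, 3 at 0.025 µM, 4 members between copper and lead and 2 between water and DMSO controls. DESeq2 called 10 pairs at 0.25 µM, 2 at 0.025 µM, 8 members in cadmium, 4 in DDE and 3 between water and DMSO controls, and RLE scaling called 2 in the last. A term for the sets gave 10 pairs at 0.25 µM, 2 at 0.025 µM, 5 members between copper and lead and 3 between water and DMSO controls. A term for position gave 6 members in DDE, and leaving out its 2 outer controls, chosen after seeing the data, gave 1. Within the first set, 11 pairs were called at 0.025 µM and 5 members in cadmium. Within the last set, 17 pairs were called at 2.5 µM, 15 at 0.25 µM and 7 at 0.025 µM, 2 members in lead and 0 in MPB. The sets do not exist for DDE, and the last has no cadmium at 25 µM. The causes were not tested.

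Leaving out a replicate gave 26 to 30 calls at 25 µM, 7 to 12 at 2.5 µM, 1 to 11 at 0.25 µM and 0 to 3 at 0.025 µM. It gave 0 to 3 members in DDE, 0 to 1 in MPB, 1 to 4 between arsenic and cadmium and 1 to 3 between water and DMSO controls, with 2 without water control replicate 48. With the replicate block, 31 trends were called in place of 22, and between metals the block gave 5 members for copper and lead, 5 for arsenic and cadmium and 10 for arsenic and copper. Where numbers pair the libraries it changed no call but those of copper, lead and mercury given in the report. Depth limits HBEGF, near 4 CPM in most controls, and all cadmium values at 25 µM.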
